A study of Mus musculus with 6 samples.

Results

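A mammary tumour that had grown back after targeted therapy was set against the residual tissue that such therapy leaves behind, with 1 single-cell RNA library for each. The cells were those of the authors' count table whose column names begin with Recurrent or Dormant, with a cell kept at 500 or more unique molecular identifiers (UMIs, each standing for 1 captured RNA molecule) and 200 or more genes, and no more than 20% of UMIs from mitochondrial genes. This left 7961 cells, 4685 Recurrent and 3276 Dormant, of the 18293 kept in the 4 libraries of tumour stages. The series as a whole held 24603 deposited cells in 6 libraries.

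Both libraries came from transplanted tumours in the mammary gland of FVB (FVB.rGH-Luc-GFP) mice. The labels give the genotype as MMTV-Wnt1/iFGRR3 for the Recurrent and MMTV-Wnt1/iFGRR1 for the Dormant sample, without saying what the last digit stands for. In this model the mouse mammary tumour virus promoter drives the growth factor gene Wnt1 in mammary epithelium, and an inducible fibroblast growth factor (FGF) receptor is switched on by a dimerizer drug. All mice received the B/B homodimerizer by intraperitoneal injection at intervals of 3 days from the day after transplantation until their tumours no longer needed it. When tumours measured 7 to 9 mm, the FGF receptor inhibitor NVP-BGJ398 was given by gavage for 14 days and then withheld for 14 days. Dormant tissue was taken at that point, from mice of 10 to 12 weeks. Recurrent tissue came from mice of 20 to 22 weeks that were left untreated until the tumour grew back. Stage and age of the mice therefore cannot be told apart, and the number of mice behind each library is not given in the sources used here. Cells were dissociated, frozen, thawed and sorted as live before capture with version 2 of the Chromium 3′ kit.

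With 1 library on each side, no difference between them has a replicate check, and no p-value is given. Every interval is a 95% interval that covers counting error only. Levels are in CPM, the UMIs of a gene per 1000000 UMIs of the cells summed. A gene was called higher or lower in Recurrent cells where it had at least 20 UMIs over both libraries and the whole interval of the ratio lay past 2-fold. A call thus compares these libraries, not the conditions.

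The mammary duct is a bilayer of inner luminal cells, some of which make milk, and outer basal or myoepithelial cells, which contract around them. Residual disease after therapy is usually described as a small number of tumour cells held out of division by inhibitors of the cell cycle, within a tissue rich in immune and stromal cells. In this tissue Wnt, FGF and Notch signals between neighbouring cells govern the balance between progenitors, luminal cells and basal cells.

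The Recurrent part of the table held 41259292 UMIs in 5119 deposited cells and the Dormant part held 14185689 UMIs in 3541. Kept cells had a median of 7550 UMIs and 2074 genes in the Recurrent library, against 2738.5 UMIs and 930 genes in the Dormant library, and 26 cell barcodes occurred in both. Summed markers of the named classes were present on both sides (26485 and 16980 CPM for macrophages in macrophage- or monocyte-like cells, 6263 and 4916 CPM for T cells in T- and NK-like cells, 29478 and 24582 CPM for fibroblasts in fibroblast-like cells, Recurrent first). Other cells' markers differed as well. In Recurrent immune cells, genes of luminal epithelium were at 1205 CPM summed in macrophage-like cells and 684 CPM in T- and NK-like cells, against 109 and 139 CPM in the same classes of the Dormant library. In Dormant epithelial-like cells the 11 T cell markers summed to 490 CPM, against 33.9 CPM in Recurrent ones, and the 9 fibroblast markers to 456 CPM, against 15.4 CPM. In luminal-like cells the fibroblast markers were at 508 CPM in Dormant and 15.3 CPM in Recurrent cells, and their part in genes lower in Recurrent epithelium was not tested. A gene that another cell class of the same library held at over 5 times the level is therefore named as a candidate for RNA from other cells where it is given.

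Epithelial-like cells made up most of the Recurrent library and immune cells most of the Dormant library. The epithelial-like share was 57.0% (55.6 to 58.4%, 2670 of 4685 cells) in Recurrent and 9.28% (8.31 to 10.3%, 304 of 3276 cells) in Dormant. Named instead by the marker UMIs of each cell, the shares were 30.4% and 6.62%, so that epithelial-like cells were then not the majority of the Recurrent library. Immune cells were 40.4% (39.0 to 41.8%) of Recurrent and 80.7% (79.3 to 82.1%) of Dormant cells. Their make-up differed too. Macrophage- or monocyte-like cells, which engulf debris and shape inflammation, were 69.2% of Recurrent immune cells (1308 cells) and 7.86% of Dormant ones (208 cells). T- and NK-like cells, the lymphocytes that recognise or kill target cells, were 24.9% (471 cells) and 69.6% (1842 cells) in the same order. B- or plasma-like cells, which make antibodies, numbered 1 of 1891 immune cells in Recurrent and 298 of 2645 (11.3%) in Dormant. Plasmacytoid dendritic-like cells, a source of type I interferon, were 1.37% and 5.07% of immune cells, other dendritic-like cells 2.38% and 5.63%, and neutrophil-like cells 2.12% and 0.529%. Fibroblast-like cells were 2.31% of all Recurrent cells (108 cells) and 9.07% of all Dormant cells (297 cells). A share depends on what survived freezing and sorting, and the 2 libraries differed in depth. The part of either in these shares was not tested.

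**Figure D1:**
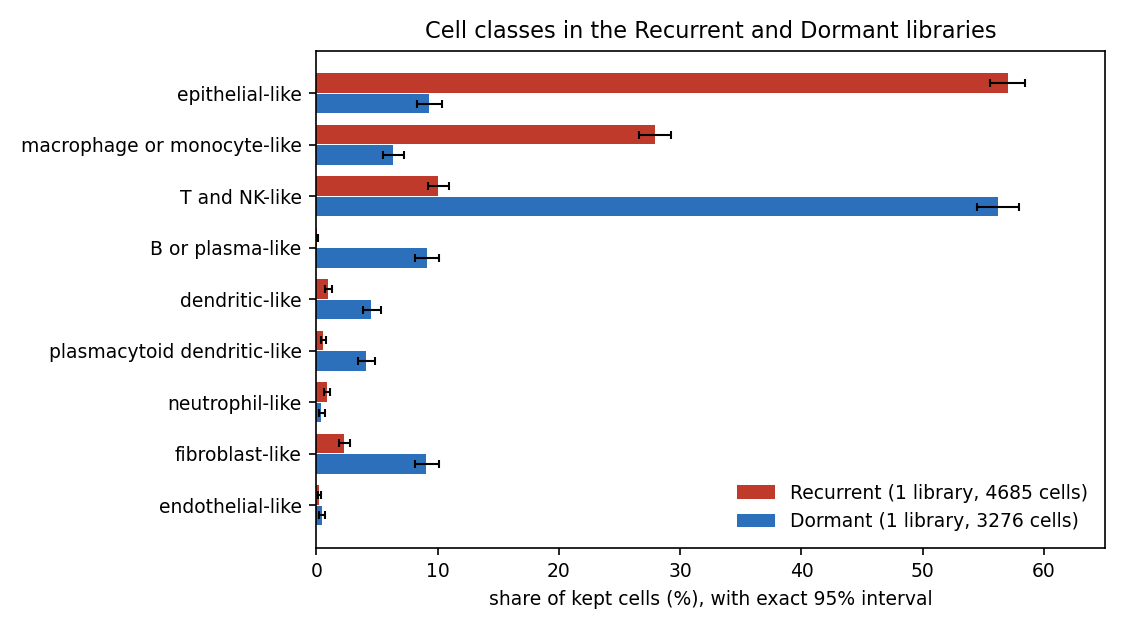
Share of kept cells (%) in 9 marker-named classes, 1 bar per library with its exact 95% interval. The Recurrent library is highest in epithelial-like cells (57.0%) and the Dormant library in T- and NK-like cells.

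Within the epithelial-like class the libraries hardly met. Cluster 0, a luminal-like cluster, held 2183 of the 2670 Recurrent cells (81.8%) and 8 of the 304 Dormant cells (2.63%). Cluster 18, a basal-like cluster led by the contractile genes Acta2, Cnn1, Mylk and Myh11, held 171 Dormant cells (56.3%) and no Recurrent cell. Cluster 26, led by Calca, Upk3a and Cited1, held 29 Dormant and 2 Recurrent cells. In all, 96.9% of Recurrent epithelial-like cells were luminal-like and 0.599% basal-like, against 17.4% (13.3 to 22.2%) and 59.2% (53.5 to 64.8%) of Dormant ones. One cluster, number 19, which went unnamed between luminal and basal markers and was led by Cst6, Krt6a, Sprr1a, Krt79 and Krt14, held similar numbers from each side, 68 Recurrent and 71 Dormant cells. Summed class values therefore set mostly luminal-like Recurrent cells beside mostly basal-like Dormant cells. Many of them are given here next to the same genes in luminal-like cells (2586 Recurrent, 53 Dormant, 29 of the latter in cluster 26) and in cluster 19, a pairing chosen after the data were seen. The other cells' markers in cluster 19 differed between libraries as well: the 11 T cell markers summed to 972 CPM in Recurrent and 407 CPM in Dormant cells, and the 12 macrophage markers to 357 and 125 CPM, with the macrophage genes Adgre1 and Fcgr1 at 0 in both. Their part in the values of cluster 19 was not tested.

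**Figure D2:**
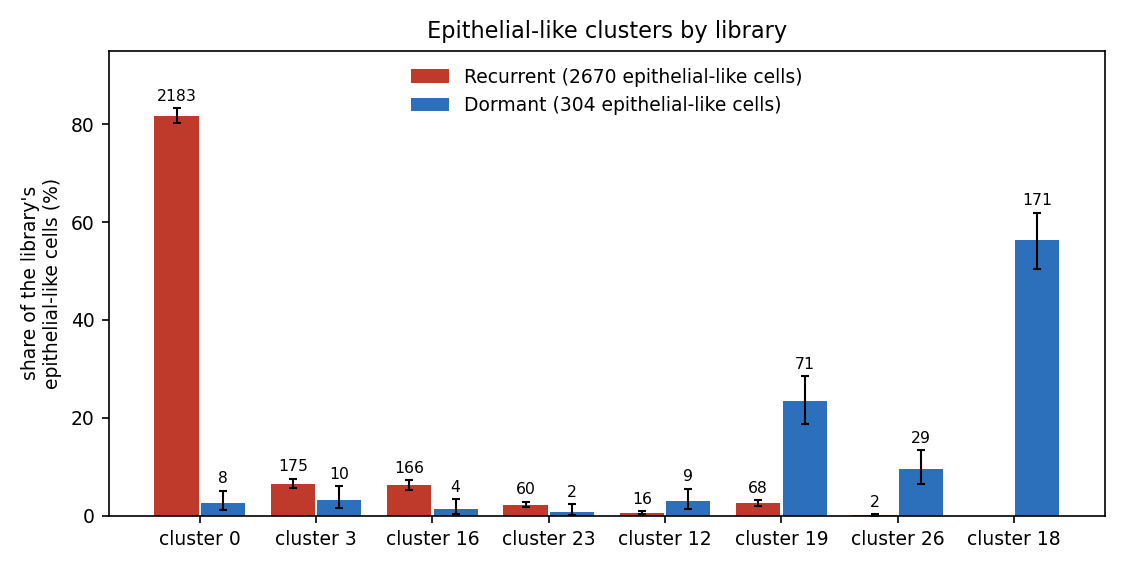
Share of each library's epithelial-like cells (%) in the 8 epithelial-like clusters, with exact 95% intervals and the number of cells above each bar. Cluster 19 is the cluster with at least 50 cells from each library (68 and 71); cluster 18 holds Dormant cells alone and cluster 0 mostly Recurrent ones.

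The reporter eGFP, which the count table lists as a gene of its own, was at 6835 CPM in Recurrent and 3160 CPM in Dormant epithelial-like cells. When every cell was thinned to 1000 UMIs, 97.1% (96.3 to 97.7%) of Recurrent and 73.2% (67.8 to 78.1%) of Dormant epithelial-like cells held an eGFP UMI (99.0% and 85.5% without thinning). Immune cells, the background here, held one in 6.34% and 1.03% after thinning. Median depths before thinning were 9493 and 6860 UMIs for epithelial-like cells and 5754 and 2451 UMIs for immune cells. Most Dormant cells of the basal-like cluster 18 carried it (69.8% thinned), as did most Dormant cells of cluster 19 (87.3%, against 94.0% of the Recurrent cells there). Cells of cluster 26 carried it less often, in 27.6% of the Dormant cells.

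Over all epithelial-like cells 11945 genes were measured, of which 3.64% were called higher and 10.5% lower in Recurrent cells, with a median log2 ratio of -0.05 over all of them. Restricted to cells with an eGFP UMI, 3.51% were higher and 10.1% lower. In luminal-like cells the shares were 1.4% higher and 3.06% lower of 11404 genes (median -0.06), and in cluster 19 they were 2.83% higher and 1.45% lower of 6393 genes (median 0.17). Counts of list members below are to be read against these shares.

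Genes of milk and of the luminal progenitor were higher in Recurrent epithelial-like cells. Of 14 such genes, 10 were called higher and 0 lower, with a median log2 ratio of 2.06. In luminal-like cells 7 were higher and 0 lower (median 1.45), and in cluster 19 4 were higher and 0 lower (median 0.37). Csn2, Lalba and Ltf were among the genes that led cluster 0, so their class levels partly restate which cells are in the class. Csn3, which encodes kappa-casein, the protein that keeps milk micelles in suspension (chr5:87925579-87932665, plus strand, GRCm38), stood at 16080 CPM in Recurrent and 1357 CPM in Dormant epithelial-like cells, a log2 ratio of 3.57 (3.52 to 3.61). It was 2.70 (2.61 to 2.79) in luminal-like cells, from 16316 and 2512 CPM. In cluster 19 the levels were 7156 and 2414 CPM, a log2 ratio of 1.57 (1.49 to 1.64), with a UMI in 62 of 68 Recurrent and 41 of 71 Dormant cells. Thinned to 1000 UMIs, a Csn3 UMI was found in 62.7% (50 to 74.2%) of Recurrent and 46.5% (34.5 to 58.7%) of Dormant cells of that cluster, 2 intervals that overlap. Immune cells, which should lack it, held a Csn3 UMI in 28.1% of Recurrent and 1.20% of Dormant cells when thinned in the same way. The level of Csn3 in immune cells was 848 CPM in Recurrent and 22.9 CPM in Dormant, in each case below that of the library's cluster 19. Some Recurrent immune cells held more: in the macrophage-like cluster 9, described below, Csn3 was above its level in Dormant cells of cluster 19. The part of RNA from other cells in the Csn3 values of cluster 19 was not tested.

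Csn2, the gene of beta-casein (chr5:87692624-87699630, minus strand), was detected in the Recurrent cells alone. It had 20430 UMIs in Recurrent epithelial-like cells (711 CPM, in 626 of 2670 cells) and 0 in Dormant ones, which makes it at least 632.5-fold higher by the level that 3 UMIs would give. In cluster 19 it was at 125 CPM and 0, at least 35.3-fold higher, but with 13 of 68 Recurrent cells holding a UMI. Lalba, the alpha-lactalbumin that turns galactosyltransferase into lactose synthase, was at 869 and 58.9 CPM in epithelial-like cells (log2 3.88, 3.66 to 4.12) and at 366 and 71.0 CPM in cluster 19 (2.36, 1.95 to 2.80). Ltf, the iron-binding lactoferrin of milk, was at 713 and 64.9 CPM over the class and at 1163 and 173 CPM in cluster 19 (2.75), where 40.1% and 46.6% of the UMIs came from 1 cell each. Elf5, a transcription factor of the alveolar lineage, was called over the class, at 209 and 84.3 CPM (log2 1.30), but in neither luminal-like cells (210 and 121 CPM) nor cluster 19 (148 and 183 CPM). Prlr, the prolactin receptor, was at 106 and 87.0 CPM over the class and was not called. Casein transcription is known to run through prolactin, its receptor and the factor Stat5, which binds the palindrome TTCNNNGAA. Of the 9 list members with a RefSeq promoter on GRCm38.p6, Csn1s1 and Csn2 held that motif within the 250 bases before the start, on either strand, as did 7.02% of all 32851 promoters. The stretch of Csn2 is shown because its transcript was detected in Recurrent epithelial-like cells alone, with the motif in capitals (chr5:87699500-87699528, minus strand, 93 bases before the start).
Csn2: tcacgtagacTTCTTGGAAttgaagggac

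Other genes followed the luminal pattern over the class. Spp1, which encodes the secreted matrix protein osteopontin (chr5:104435118-104441050), was at 10302 CPM in Recurrent and 501 CPM in Dormant epithelial-like cells (log2 4.36, 4.28 to 4.44). It was at 11392 and 13374 CPM in cluster 0, the latter from 8 cells, and at 4707 and 369 CPM in cluster 19. Thrsp, a regulator of fatty acid synthesis in lactating tissue, was at 1127 and 54.4 CPM (4.37), and in luminal-like cells at 1144 and 25.0 CPM (5.45). Cpe, carboxypeptidase E, which trims peptide hormones, was at 272 and 9.37 CPM (4.83, 4.29 to 5.49), and at 325 and 22.5 CPM in cluster 19. Of 10 genes of fatty acid synthesis, 4 were called higher and 0 lower (median 0.97): Acly, Scd1, Elovl6 and Me1, which supply or modify fatty acids. Scd1, the desaturase, was at 350 and 109 CPM. Fasn, the fatty acid synthase itself, was at 40.1 and 37.1 CPM and was not called, and in cluster 19 none of 9 genes of the list was called. Xbp1, the transcription factor that expands the secretory apparatus, was at 1414 and 169 CPM over the class (3.06) and at 1061 and 267 CPM in cluster 19 (1.99, 1.77 to 2.21).

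Basal genes went the other way over the class: all 12 were lower in Recurrent cells, with a median log2 ratio of -8.08, or -7.49 with genes at 0 placed at their bound. Acta2, smooth muscle actin, was at 0.592 CPM in Recurrent and 1228 CPM in Dormant cells, and the basal keratin gene Krt5 at 0.766 and 153 CPM (log2 -7.61, -8.34 to -7.03). Acta2 is a leading gene of cluster 18, which holds no Recurrent cell. Without that cluster the median of the list was -2.83, with Acta2 at -3.54 and Krt5 at -3.45. In the small basal-like cluster 12, Krt5 was at 190 CPM in Recurrent and 194 CPM in Dormant cells, and in cluster 19 it had no UMI in either library. Ptn, a heparin-binding growth factor, was at 5.81 and 1489 CPM, Col4a1, a basement membrane collagen, at 0.975 and 205 CPM, Id4, an inhibitor of differentiation factors in basal cells, at 1.78 and 282 CPM, and Igfbp2, which binds insulin-like growth factors, at 0.627 and 129 CPM. In cluster 19 each of these was under 20 CPM in both libraries, and Col4a1 was at 190 and 52.9 CPM in cluster 12, from 15 and 3 UMIs. The general luminal keratins did not separate the class, with Krt18 at 1611 and 1574 CPM and Krt8 at 964 and 1020 CPM, although in luminal-like cells both were lower in Recurrent (log2 -1.62 and -1.68).

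Cell cycle inhibitors were lower in Recurrent epithelial-like cells. Of 14 inhibitors and growth arrest genes measured, 0 were called higher and 8 lower, with a median log2 ratio of -1.18. Luminal-like cells had 0 higher and 7 lower (median -1.44), and cluster 19 had 0 higher and 2 lower of 11 (median -0.40). Cdkn1a, which encodes p21, an inhibitor of cyclin-dependent kinases and a target of p53 (chr17:29090976-29100727), was at 98.5 CPM in Recurrent and 441 CPM in Dormant epithelial-like cells, a log2 ratio of -2.16 (-2.26 to -2.06). The ratio was -2.65 (-2.83 to -2.46) in luminal-like cells, from 95.6 and 599 CPM. In cluster 19, Cdkn1a was at 221 and 683 CPM (-1.62, -1.91 to -1.36), with a UMI in 33 of 68 Recurrent and 66 of 71 Dormant cells. After thinning to 1000 UMIs these shares were 14.9% (7.40 to 25.7%) and 49.3% (37.2 to 61.4%). Cdkn1a is made by many cell types, and T- and NK-like cells, given for comparison, held a UMI in 10.2% and 10.7% of thinned cells.

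Cluster by cluster, the level of Cdkn1a was below that of the Dormant cells in clusters 0, 3, 16, 19 and 23 and above it in cluster 12, most of these with 10 or fewer Dormant cells and no call made. It was at 103 CPM in the Recurrent and 559 CPM in the 8 Dormant cells of cluster 0, and at 141 and 564 CPM in cluster 3. The basal-like cells of cluster 18, all Dormant, stood at 250 CPM, and those of cluster 26 at 459 CPM. In cluster 12, a small basal-like cluster of 16 Recurrent and 9 Dormant cells, the order was opposite, 190 and 88.2 CPM, the latter from 5 UMIs. In other classes the libraries were closer, with 459 and 386 CPM in macrophage-like cells and 161 and 161 CPM in fibroblast-like cells. T- and NK-like cells stood at 99.2 and 126 CPM.

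Cdkn2a, the locus of p16 and p19Arf, followed Cdkn1a at a lower level, 23.9 and 60.4 CPM over the class (-1.34) and 21.4 and 97.0 CPM in cluster 19 (-2.13, -3.15 to -1.33). The growth arrest genes Gadd45a, Gadd45b and Gadd45g were each lower over the class, Gadd45b at 39.3 and 262 CPM (-2.74), but were not called in cluster 19. Cdkn1b, which encodes p27, and Cdkn2b, which encodes p15, were not called in any of the 3 comparisons. Of 12 p53 targets, 0 were higher and 5 lower over the class (median -1.21), and 0 and 2 of 11 in cluster 19 (median -0.81). Phlda3, a p53 target that restrains Akt (chr1:135766119-135769136), was at 25.2 and 262 CPM over the class (-3.38, -3.53 to -3.22), at 24.5 and 191 CPM in luminal-like cells (-2.97) and at 47.8 and 234 CPM in cluster 19 (-2.27, -2.91 to -1.73). Immune cells held it at 4.50 and 14.0 CPM. Mdm2, which marks p53 for destruction and is itself a p53 target, was at 33.7 and 58.9 CPM over the class and was not called.

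Few genes of division were called over the epithelial-like class, where 3.64% of all genes were called higher and 10.5% lower. Of 21 mitosis genes, 0 were called higher and 1 lower over the class (median -0.02), the lower one being Kif23, at 2.16 and 9.75 CPM. Mki67, the proliferation antigen Ki-67, was at 13.7 and 10.5 CPM, and Top2a, the topoisomerase of dividing cells, at 15.0 and 18.4 CPM. Of 17 S phase genes, 0 were higher and 2 lower (median -0.61). The counts called in both lists were near the shares of all genes. Slbp, which binds histone messages, was at 57.1 and 207 CPM, and Mcm6, of the replicative helicase, at 13 and 35.6 CPM. In cluster 19, 3 of 5 mitosis genes were lower (median -2.98, or -2.52 with genes at 0 at their bound), among them Ccnb1, with no UMI in Recurrent and 30.8 CPM in Dormant cells, 84.6% of it from 1 cell. Ccnd1, the G1 cyclin that Wnt and FGF signals induce (chr7:144929931-144939925), was lower in each comparison. It was at 50.1 and 270 CPM over the class (-2.43), at 49.7 and 289 CPM in luminal-like cells (-2.55) and at 67.5 and 550 CPM in cluster 19 (-3.01, -3.52 to -2.56). By cluster it ranged from 11.4 to 93.2 CPM in the Recurrent cells of clusters 0, 3 and 16 and from 181 to 494 CPM in their few Dormant cells, while the basal-like cells of cluster 18 stood at 85.2 CPM.

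**Figure D3:**
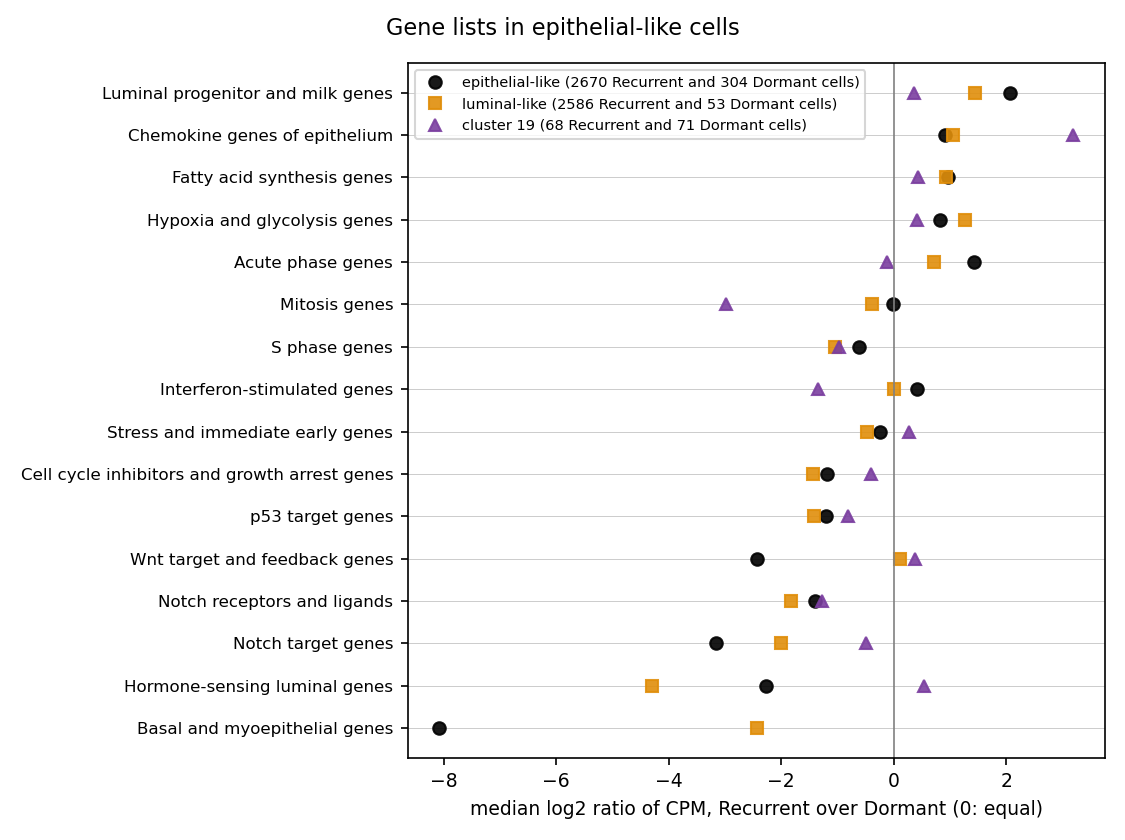
Median log2 ratio of CPM, Recurrent over Dormant, of 16 gene lists in all epithelial-like cells (circles), luminal-like cells (squares) and cluster 19 (triangles). Milk and chemokine genes lie right of 0 and cell cycle inhibitors, p53 targets and Notch genes left of it in all 3, while Wnt targets and acute phase genes lie on different sides of 0 with the cells compared.

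The Notch pathway passes signals between touching cells. Ligands of the Jagged and Delta families bind Notch receptors, which are then cut, and the freed inner part switches on Hes and Hey repressors. Of 7 receptors and ligands measured, 0 were higher and 4 lower in Recurrent epithelial-like cells (median -1.41). The ligands differed most. Dll1 was at 0.905 CPM in Recurrent and 38.6 CPM in Dormant cells (log2 -5.39), Jag2 at 0.592 and 21.7 CPM (-5.17), and Jag1 (chr2:137081456-137116644) at 2.79 and 21.0 CPM (-2.92). None of the 3 was called in luminal-like cells or in cluster 19, where Jag1 had 4 and 2 UMIs. Among the receptors Notch1 was at 21.1 and 55.9 CPM (-1.41) and was called over the class, but in luminal-like cells (20.9 and 61.5 CPM) and cluster 19 (31.3 and 76.9 CPM) it was not. Notch2 was at 17.7 and 8.62 CPM, Notch3 at 9.57 and 21.7 CPM and Notch4 at 0.766 and 1.87 CPM, none of them called over the class.

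Notch target genes were lower in Recurrent cells as well, 5 of 6 over the class (median -3.15), 2 of 5 in luminal-like cells (median -2.0) and 0 of 4 in cluster 19 (median -0.49). Hes1, the main repressor induced by Notch, was at 60.3 and 213 CPM over the class (-1.82, -1.96 to -1.68) and at 58.9 and 235 CPM in luminal-like cells (-2.0, -2.28 to -1.69). In cluster 19 it was at 109 and 272 CPM, a log2 ratio of -1.32 (-1.74 to -0.92), an interval that reaches into the 2-fold range and makes no call. Hey1, another repressor of the family, was at 1.64 and 18 CPM over the class (-3.46) and at 11.5 and 18.9 CPM in cluster 19, not a call. Heyl had 3 UMIs in each library. Nrarp, a feedback inhibitor that Notch induces, was at 2.47 and 37.1 CPM over the class (-3.91) but at 34.6 and 43.8 CPM in cluster 19, which is not a call. Outside the epithelial class Hes1 was given as a level, with no call. T- and NK-like cells held Hes1 at 9.48 CPM in Recurrent and 81.5 CPM in Dormant, macrophage- or monocyte-like cells at 13.2 and 106 CPM, and fibroblast-like cells at 204 and 613 CPM. The Dormant fibroblast-like level was over 5 times that of Dormant T- and NK-like and macrophage- or monocyte-like cells. Hes1 in those immune classes is therefore a candidate for RNA from other cells, whose part was not tested.

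Wnt1, the ligand gene that the transgene carries (mouse locus chr15:98789857-98793837), was read at 17.5 CPM in Recurrent and 9.00 CPM in Dormant epithelial-like cells. The log2 ratio of 0.94 (0.37 to 1.62) made no call. The count does not say whether a UMI came from the transgene or from the mouse locus. Of 11 Wnt targets and feedback genes measured, 0 were higher and 7 lower over the class (median -2.43). In luminal-like cells 0 were higher and 1 lower, with a median of 0.12 that becomes -1.25 with genes at 0 at their bound, and in cluster 19 2 were higher and 1, Ccnd1, lower (median 0.39). Lgr6, a receptor for R-spondin on basal progenitors, was at 2.68 and 113 CPM over the class, and the secreted inhibitor Wif1, a leading gene of cluster 18, at 7.73 and 416 CPM. Nkd2, a feedback inhibitor of Wnt signalling, was lower over the class, at 8.15 and 46.5 CPM (-2.52), and higher in cluster 19, at 147 and 48.5 CPM (1.59, 1.05 to 2.17). The direction for the Wnt list therefore depended on which epithelial cells were set side by side.

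Of 6 FGF receptors and ligands measured, 0 were higher and 2 lower. Fgfr2, a receptor gene of mammary epithelium, was at 0.139 and 25.9 CPM over the class (-7.38), at 0.107 and 70.6 CPM in luminal-like cells and without a UMI in cluster 19, whereas Fgfr1 was at 32.0 and 73.5 CPM and was not called. The feedback genes of FGF and MAP kinase signalling had 0 higher and 1 lower of 15 over the class (median -0.75), the lower one being the Ets factor Etv4, at 4.74 and 16.1 CPM. In luminal-like cells (median 0.02) and in cluster 19 (10 genes, median 0.73) none was called. Of 8 hormone-sensing luminal genes, 0 were higher and 5 lower over the class. The progesterone receptor gene Pgr was at 0.139 and 8.62 CPM and Foxa1, a pioneer factor for hormone receptors, at 0.766 and 25.5 CPM. In cluster 19 Pgr had no UMI and Foxa1 was not called. Cited1, a cofactor of the oestrogen receptor and a leading gene of cluster 26, was at 1.07 and 656 CPM in luminal-like cells.

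Chemokine genes went both ways in Recurrent epithelial-like cells, with neutrophil attractants among the higher ones. Of 10 epithelial chemokine and cytokine genes, 4 were higher and 2 lower over the class (median 0.92), 4 and 1 in luminal-like cells (median 1.05) and 4 and 0 of 6 in cluster 19 (median 3.19). Cxcl1, a ligand of the neutrophil receptor Cxcr2 (chr5:90891241-90893115), was at 675 CPM in Recurrent and 124 CPM in Dormant cells (log2 2.44, 2.29 to 2.60). It was at 678 and 118 CPM in luminal-like cells (2.50) and at 586 and 147 CPM in cluster 19 (2.00, 1.70 to 2.31). Cxcl2, its neighbour and close relative (chr5:90903871-90905938), was at 813 and 28.1 CPM over the class (4.84) and at 598 and 9.47 CPM in cluster 19 (5.90). Macrophage- or monocyte-like cells held Cxcl2 at 8866 CPM in Recurrent and 3117 CPM in Dormant, so the epithelial values are candidates for RNA from those cells; their part was not tested. Csf3, the growth factor of neutrophils, was at 45.9 and 1.5 CPM over the class (4 Dormant UMIs) and at 65.9 and 2.37 CPM in cluster 19 (2 Dormant UMIs; log2 4.50, 2.85 to 7.89). Ccl20, which attracts cells bearing Ccr6 and leads cluster 0, was at 116 and 1.5 CPM over the class. In the other direction Cxcl15, a chemokine of mucosal epithelium and a leading gene of cluster 26, was at 0.174 and 30.4 CPM.

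The promoters of Cxcl1 and Cxcl2 are shown because both genes were higher and both hold, in capitals, the same run of 10 bases, a form of the NF-kappaB site. It lies 71 bases before the start in Cxcl1 (window printed chr5:90890995-90891214, plus strand) and 97 bases before it in Cxcl2 (chr5:90903649-90903868, plus strand), from RefSeq on GRCm38.p6. Of the 8 list members with a promoter, these 2 held it within 250 bases on either strand, as did 28 of 32851 promoters (0.0852%). A match describes the letters and says nothing of binding in these cells.
Cxcl1: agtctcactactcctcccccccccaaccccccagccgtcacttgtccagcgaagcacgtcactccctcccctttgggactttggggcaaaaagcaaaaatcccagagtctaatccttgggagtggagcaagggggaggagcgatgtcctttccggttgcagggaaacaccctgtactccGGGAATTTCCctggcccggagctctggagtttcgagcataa
Cxcl2: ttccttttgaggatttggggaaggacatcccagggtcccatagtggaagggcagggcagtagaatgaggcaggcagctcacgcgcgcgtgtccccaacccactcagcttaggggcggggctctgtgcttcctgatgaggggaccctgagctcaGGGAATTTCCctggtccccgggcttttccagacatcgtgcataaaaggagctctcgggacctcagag

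Acute phase genes were mixed, with 5 higher and 2 lower of 10 over the class (median 1.43, or 1.37 with genes at 0 at their bound) and 0 higher and 2 lower of 6 in cluster 19 (median -0.13). Lcn2, lipocalin-2, which withholds iron from bacteria, was at 5683 and 1018 CPM over the class (2.48) and at 2786 and 1495 CPM in cluster 19 (0.90, no call). Hp, haptoglobin, which binds free haemoglobin and is a leading gene of cluster 19, was lower, at 29.1 and 226 CPM over the class. Interferon-stimulated genes were split too, with 2 higher and 3 lower of 18 over the class (median 0.41) and 1 higher and 4 lower of 13 in cluster 19 (median -1.35). Irf7, the factor that amplifies type I interferon, was higher, at 197 and 53.6 CPM over the class (1.87) and 203 and 71.0 CPM in cluster 19 (1.51). None of the 10 genes of antigen presentation by MHC class I was called over the class (median -0.80). Among genes of hypoxia and glycolysis, 3 were higher and 1 lower of 14 (median 0.82); Ldha, lactate dehydrogenase, was at 963 and 451 CPM (log2 1.09).

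**Figure D4:**
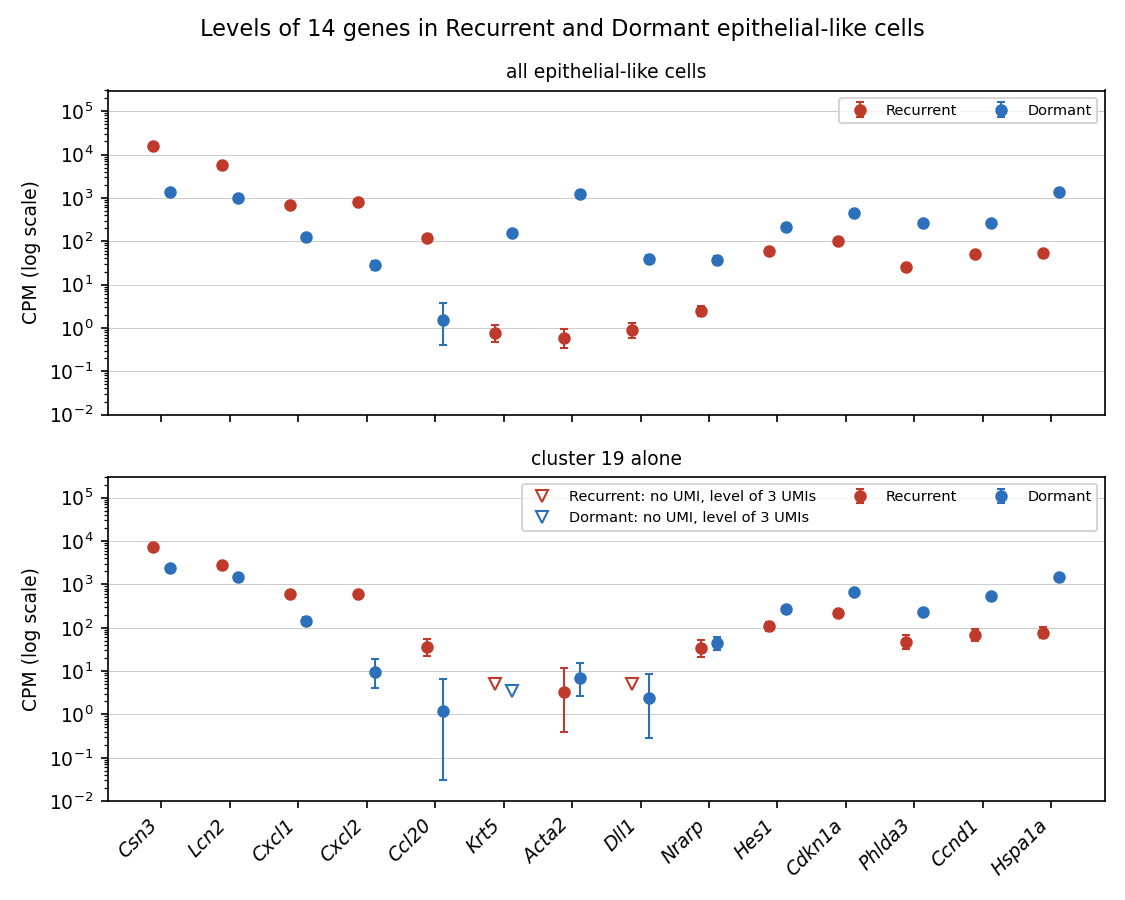
CPM (log axis) of 14 genes in Recurrent (red) and Dormant (blue) epithelial-like cells, over the class and in cluster 19 alone, with 95% Poisson intervals; open triangles mark genes with no UMI, at the level of 3 UMIs. Csn3, Cxcl1 and Cxcl2 are higher and Cdkn1a, Phlda3, Ccnd1 and Hspa1a lower in Recurrent cells in both panels, while the distance for the basal genes Krt5 and Acta2 is seen over the class alone.

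Beyond the lists, single genes of cluster 19 were seen in 1 library alone or nearly so. Klk6, a secreted trypsin-like protease (chr7:43824499-43832030), was at 755 CPM in Recurrent and 0 in Dormant cells of the cluster, at least 212.5-fold higher, in 19 of 68 cells. Klk14, a related protease, was at 534 and 3.55 CPM (3 Dormant UMIs). In the other direction Upk3a, a uroplakin of urinary epithelium, had no UMI in Recurrent and 148 CPM in Dormant cells (at least 29.9-fold lower), Dapl1, a gene of early differentiation in stratified epithelium, 0 and 154 CPM (at least 31.1-fold lower), and Chil1, a chitinase-like secreted protein, 0 and 123 CPM (at least 24.9-fold lower).

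The heat shock genes were lower in Recurrent cells of every class compared. Hspa1a, the inducible chaperone Hsp70 (chr17:34969190-34972156), was at 53.3 CPM in Recurrent and 1355 CPM in Dormant epithelial-like cells (log2 -4.67). It was at 77.4 and 1473 CPM in cluster 19 (-4.24, -4.70 to -3.83), at 84.3 and 1014 CPM in macrophage- or monocyte-like cells (-3.59), at 65.2 and 1892 CPM in fibroblast-like cells (-4.84) and at 34.7 and 190 CPM in T- and NK-like cells (-2.44), the last a candidate for RNA from other cells. Hspa1b is known as a near-identical paralog of Hspa1a, so the division of counts between them is uncertain, and their 250 bases before the start are the same at 247 positions. Hspa1b was at 33.8 and 325 CPM in epithelial-like cells. Dnajb1, the co-chaperone of Hsp70, was at 93.4 and 544 CPM. Of 14 stress and immediate early genes, 5 were lower and 0 higher over the epithelial-like class (median -0.25), 5 lower and 0 higher in macrophage-like cells (median -0.37), 4 lower and 0 higher in T- and NK-like cells (median -0.74), and 4 lower and 1 higher in fibroblast-like cells (median 0.12). These genes also respond to dissociation, freezing and thawing, and handling of the 2 libraries cannot be told apart from their stage. The promoter of Hspa1a is shown with the heat shock element core GAANNTTC in capitals, 104 bases before the start (chr17:34972187-34972406, minus strand). Of 12 list members with a promoter, Hspa1a, Hspa1b and Jun held it within 250 bases on either strand, as did 6.69% of all promoters.
Hspa1a: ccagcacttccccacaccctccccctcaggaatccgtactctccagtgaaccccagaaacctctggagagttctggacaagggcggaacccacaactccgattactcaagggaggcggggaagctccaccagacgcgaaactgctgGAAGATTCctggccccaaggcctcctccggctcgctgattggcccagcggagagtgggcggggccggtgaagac

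Macrophages and monocytes of the Recurrent library came mostly from 1 cluster. Cluster 2 held 968 of 1308 Recurrent cells (74.0%) and 9 of 208 Dormant cells (4.33%), while cluster 9, led by complement genes and Tmem119, held 196 and 53, and cluster 7, led by Pf4, Gpnmb, F13a1 and Folr2, held 95 and 57. Cluster 6e held 60 Dormant cells (28.8%, more than any other cluster of the class) and 13 Recurrent cells (0.994%). Over the class 9708 genes were measured, of which 1.84% were called higher and 2.45% lower. In cluster 9 the shares were 2.34% and 1.51% of 6835 genes, and in cluster 7 1.99% and 2.15% of 3216 genes. Cluster 9 had 4155 CPM of luminal epithelial markers in Recurrent and 66.0 CPM in Dormant cells, and the genes called higher there included milk genes, with Csn3 at 3274 CPM in Recurrent and 6.60 CPM (2 UMIs) in Dormant cells.

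Inflammatory cytokine genes were higher in Recurrent macrophages, 8 of 10 over the class (median 1.72), of which 5 were candidates for RNA from other cells. In cluster 9, 4 of 9 were higher (median 1.15), and in cluster 7 1 was higher and 1 lower of 9 (median 0.45). Il1a, interleukin-1 alpha, was at 444 and 21.4 CPM over the class, where it leads cluster 2, and at 142 and 19.8 CPM in cluster 9 (log2 2.73). Tnf, tumour necrosis factor, was at 760 and 98.8 CPM over the class (2.94, 2.65 to 3.25) and at 303 and 85.8 CPM in cluster 9 (1.80), but at 118 and 119 CPM in cluster 7 (-0.02). The inflammasome sensor Nlrp3 was at 269 and 81.5 CPM over the class.

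Monocyte genes were lower over the class, 4 of 6 (median -3.42), with the Dormant cells of cluster 6e in the sum. In cluster 7 1 of 5 was lower and 0 higher (median -0.76), and in cluster 9 2 of 4 were lower and 1 higher (median -1.19). Ly6c2, the marker of inflammatory monocytes, was at 6.45 and 310 CPM over the class, at 18.8 and 141 CPM in cluster 7 (-2.83) and at 10.3 and 56.1 CPM in cluster 9 (-2.45, a candidate for RNA from other cells). Plac8, also of monocytes, was at 46.0 and 820 CPM over the class and at 245 and 304 CPM in cluster 7, where it was not called. Chemokines that draw monocytes and T cells were mostly lower, 6 of 9 with 1 higher (median -1.64). Cxcl9, which draws T cells through Cxcr3, was at 89.6 and 485 CPM (-2.44), while its relative Cxcl10 was the higher one, at 191 and 74.4 CPM (1.35). Ccl2, the main attractant of monocytes, was at 341 and 761 CPM (-1.16).

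Lipid-associated macrophage genes had 5 higher and 2 lower of 11 over the class (median 0.80), 5 and 0 of 10 in cluster 9 (median 1.14) and 1 and 4 of 11 in cluster 7 (median -0.58). Apoe, the lipid carrier apolipoprotein E and a leading gene of cluster 2, was at 41611 and 10845 CPM over the class and at 36276 and 13665 CPM in cluster 9 (1.41). Trem2, the lipid-sensing receptor, was at 897 and 325 CPM over the class (1.46) and at 769 and 228 CPM in cluster 9 (1.75). Fabp5, which carries fatty acids within the cell, was lower, at 180 and 632 CPM over the class and at 328 and 1740 CPM in cluster 7 (-2.40).

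Genes of resident and alternatively activated macrophages depended on the cluster: 0 were higher and 2 lower of 10 over the class (median -0.17), 6 higher and 0 lower of 9 in cluster 7 (median 2.36), and 0 higher and 1 lower of 5 in cluster 9 (median -1.56). In cluster 7 the lymphatic and perivascular macrophage marker Lyve1 was at 108 CPM in Recurrent and 4.4 CPM (1 UMI) in Dormant cells, Selenop, a selenium carrier, at 4962 and 1061 CPM (2.22), and Cd209f, a lectin receptor, at 363 and 44.0 CPM (2.98). The complement starter C1qb was at 3247 and 595 CPM in cluster 7 (2.44). Mmp12, the macrophage elastase, was lower in both clusters, at 48.5 and 1629 CPM in cluster 7 (-5.03) and 15.1 and 122 CPM in cluster 9 (-3.01). Among MHC class II genes none of 7 was called over the class (median -0.60), but 3 were lower in cluster 9, with H2-Ab1 at 7201 and 19036 CPM (-1.40).

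T- and NK-like cells fell into different clusters as well. Cluster 13, led by Gzmb and Gzmc, held 218 Recurrent and 5 Dormant cells. Cluster 8, the NK-like cells, held 25 and 562. The T cell clusters below had more than 50 cells from each side: cluster 4 (91 and 757), led by Cd8b1, cluster 11 (69 and 382), led by Tnfrsf4, Izumo1r, Ctla4 and Icos, and cluster 14 (68 and 136), led by Pdcd1, Ccl5 and Lag3. Of 9035 genes measured over the class, 2.32% were called higher and 1.38% lower in Recurrent cells. The shares were 1.52% and 0.566% in cluster 4, 0.965% and 0.643% in cluster 11, and 0.686% and 1.01% in cluster 14.

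The chemokine gene Ccl5, which effector T and NK cells release, was lower in Recurrent cells in every T cell cluster compared. It was at 1260 and 9129 CPM over the class (log2 -2.86, -2.92 to -2.79). In cluster 4 it was at 748 and 6625 CPM (-3.14), in cluster 11 at 726 and 3026 CPM (-2.05) and in cluster 14, where it is a leading gene, at 7875 and 38990 CPM (-2.31). Cytotoxicity genes had 3 higher and 3 lower of 9 over the class (median -0.11). Gzmb, granzyme B, was at 1507 and 132 CPM and Gzma, granzyme A, at 45.5 and 312 CPM, each a leading gene of a cluster held mostly by 1 library. Within the clusters none was higher and 2 of 7 in cluster 4, 3 of 7 in cluster 11 and 2 of 7 in cluster 14 were lower. In cluster 14 Gzmb was at 103 and 397 CPM (-1.91), with 65.7% of the Dormant UMIs from 1 cell. Ifng, interferon gamma, was at 15.8 and 87.0 CPM over the class (-2.43), at 5.34 CPM (1 UMI) and 203 CPM in cluster 11 (-4.66), and was not called in cluster 4 (7.09 and 28.5 CPM) or cluster 14 (68.4 and 104 CPM).

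Naive and circulating T cell genes had 0 higher and 3 lower of 8 over the class (median -1.65) and 0 and 2 in cluster 4 (median -1.13). Klf2, the factor that keeps T cells in circulation, was at 41.1 and 266 CPM over the class (-2.69) and 92.2 and 392 CPM in cluster 4 (-2.06). Tissue residency genes had 2 higher and 0 lower of 7 over the class. Itgae, the CD103 integrin that holds T cells in epithelium, was at 143 and 34.4 CPM (2.05). Itga1, the collagen-binding CD49a, was at 37.9 and 9.54 CPM (1.99). The class sum includes cluster 13, with 218 Recurrent and 5 Dormant cells, and its part was not tested. In cluster 14 Itgae had 3 and 6 UMIs and Itga1 had 0 and 3, too few to be measured. Cd69, Cxcr6, Rgs1 and Rgs2 were measured in cluster 14 and not called.

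Of 19 mitosis genes, 7 were higher and 0 lower in Recurrent T- and NK-like cells over the class (median 1.46). Within clusters, 6 of 7 were higher in cluster 4 (median 2.68), 3 of 15 in cluster 11 (median 1.52), and 0 higher and 1 lower of 8 in cluster 14 (median -1.21, or -1.19 with genes at 0 at their bound). The lower gene in cluster 14, Ube2c, had 74.6% of its Dormant UMIs from 1 cell. For Ccnb1 that share was 95.8% and for Top2a 13.2%. In cluster 4 Top2a was at 145 and 20.0 CPM (2.86) and Mki67 at 53.2 and 6.49 CPM (3.03). Regulatory T cell genes had 2 higher and 0 lower in cluster 11 (median 1.13). Il2ra, the interleukin-2 receptor alpha chain, was at 181 and 15.4 CPM there (3.54) and Ikzf2, the factor Helios, at 1270 and 539 CPM (1.24), while Foxp3, which defines the lineage, was at 101 and 37.3 CPM (1.47, no call). Exhaustion and checkpoint receptors had 1 higher and 2 lower of 10 over the class (median 0.02). Lag3, an inhibitory receptor, was at 68.9 and 191 CPM (-1.47), and Pdcd1, which encodes PD-1, at 150 and 120 CPM without a call. In cluster 14 the libraries differed in lineage genes, with Cd4 at 321 and 11.3 CPM (4.70) and Cd8a at 212 and 767 CPM (-1.84), so that cluster set T cells of different make-up side by side.

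Fibroblast-like cells came from cluster 1 (63 Recurrent, 77 Dormant), cluster 5 (45 and 94), led by Pi16, and cluster 21 (0 and 126), led by Crabp1 and Apod. Of 7899 genes measured, 1.39% were called higher and 2.27% lower over the class, and 1.74% and 1.35% of 4881 in cluster 1. Markers of macrophages summed to 1470 CPM in Recurrent and 216 CPM in Dormant cells of cluster 1, and luminal epithelial markers to 893 and 42.8 CPM; their part in the results was not tested.

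Of 12 matrix-remodelling and myofibroblast genes, 4 were higher and 1 lower in Recurrent fibroblasts over the class (median 0.81), and 4 were higher and 2 lower of 11 in cluster 1 (median 0.95). Postn, periostin, a matrix protein of activated fibroblasts, was at 1021 and 440 CPM over the class (1.21) and at 1231 and 315 CPM in cluster 1 (1.96). Cthrc1, a secreted gene of activated fibroblasts, was at 711 and 98.7 CPM over the class (2.85) and at 673 and 206 CPM in cluster 1 (1.70). Inhba, a subunit of activin, was lower, at 11.3 and 67.1 CPM over the class (-2.50) and at 18.1 and 218 CPM in cluster 1 (-3.53), with over 50% of the UMIs of each library from 1 cell. Tnc, the matrix protein tenascin C, was lower in cluster 1, at 126 and 396 CPM (-1.64). It was seen in 6 of 63 Recurrent and 5 of 77 Dormant cells, with 46.0% and 62.2% of the UMIs from 1 cell each. Among the genes higher in cluster 1, Tagln had 33 Recurrent and 3 Dormant UMIs, with 75.8% of the Recurrent ones from 1 cell. Acta2, Fap, Thbs2, Lrrc15 and Mmp14 were not called in cluster 1. Among fibrillar collagen and matrix genes 3 of 12 were higher and 0 lower over the class (median 0.73), namely Fn1, Fbn1 and Lox. Fn1, fibronectin, was at 3502 and 1353 CPM over the class (1.37, 1.29 to 1.45) and at 2971 and 488 CPM in cluster 1 (2.60). The fibrillar collagen genes of that list were not called, with Col1a1 at 4474 and 3002 CPM and Col3a1 at 10960 and 6810 CPM. Collagens outside it went both ways: Col12a1, of the remodelling list, was higher (312 and 64.0 CPM, 2.28) and Col15a1, a basement membrane collagen and a leading gene of cluster 1, lower (118 and 322 CPM, -1.44). Sfrp2, a secreted modulator of Wnt signals, was at 895 and 144 CPM over the class (2.63) and 1174 and 199 CPM in cluster 1 (2.55), and Vegfd, a growth factor of lymphatic vessels, at 416 and 75.1 CPM (2.47) and 484 and 87.8 CPM (2.45).

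Of 15 interferon-stimulated genes, 6 were lower and 0 higher in Recurrent fibroblasts over the class (median -1.34), and 2 of 12 were lower and 0 higher in cluster 1 (median -0.33). Cxcl9 was at 8.78 and 448 CPM over the class (-5.57) and at 12.0 and 191 CPM in cluster 1 (-3.88), and Cxcl10 at 86.5 and 667 CPM (-2.94) and 88.3 and 383 CPM (-2.11). The central complement gene C3 was at 522 and 1469 CPM (-1.49) and 385 and 1917 CPM (-2.31) in the same order. In cluster 1 Cxcl9 had 6 Recurrent UMIs, and 43.8% of its Dormant UMIs came from 1 cell. For Cxcl10 that Dormant share was 31.8%.

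**Figure D5:**
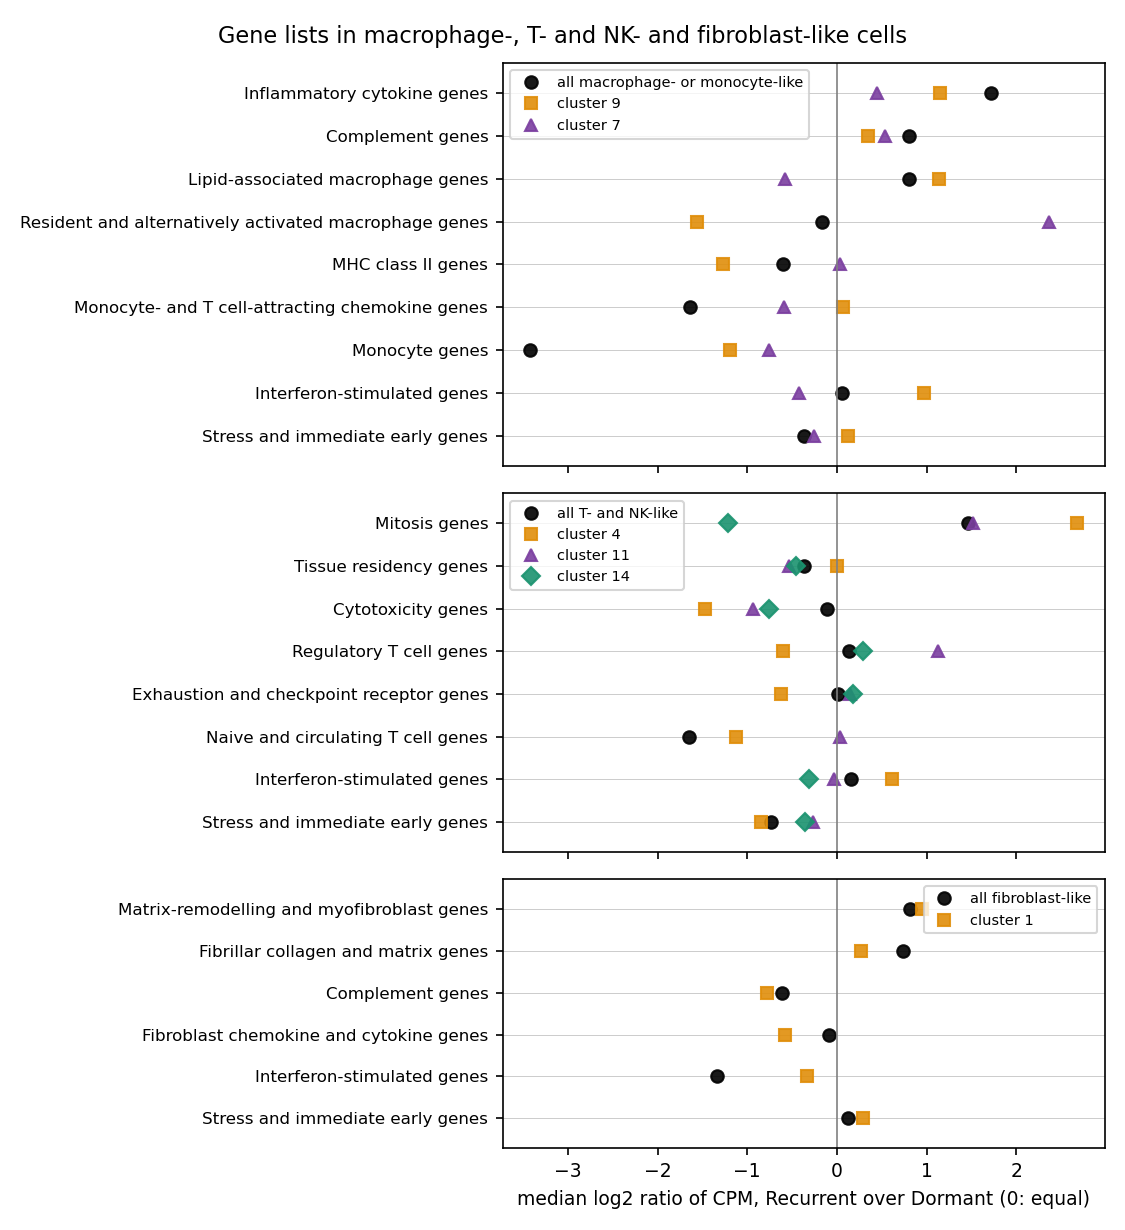
Median log2 ratio of CPM, Recurrent over Dormant, of gene lists in macrophage- or monocyte-like (top), T- and NK-like (middle) and fibroblast-like cells (bottom), over each class and within clusters with at least 50 cells from each library. The monocyte list lies far left (-3.42), and resident macrophage genes (2.36 in cluster 7) and mitosis genes of T cells (2.68 in cluster 4) lie right of 0 in some clusters and left of it in others.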

How the data were processed

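Per the submitters' processing notes, reads were processed with Cell Ranger 3.1.0 on mm10. The authors deposited raw UMI counts of 22547 genes per cell, used here as deposited. Cells of all 4 stage libraries were normalised, clustered in scanpy 1.11.5 (Leiden, resolution 1, then a second round within clusters) and named from marker genes, as "-like" or left unnamed. UMIs were summed per class and library, and the log2 ratio took a prior of 0.5 UMI with an exact conditional Poisson interval. Shares have exact Clopper-Pearson intervals. A gene at 0 was given the level of 3 UMIs. No doublets were removed. Scrublet's own threshold marked 48 Recurrent and 0 Dormant cells, and whether it failed in the latter was not checked. Removal at 0.8% per 1000 cells was an alternative. Genes named in the text were, per class, those called with the interval bound farthest past 2-fold at a mean of at least 50 CPM (up to 10 in each direction, 5 outside epithelial- and macrophage-like cells), up to 4 members per list, and set Notch, Wnt1 and eGFP genes; other list members, and Cd8a in cluster 14, were picked after their values were seen. Members and lists were chosen with earlier results of these data known. Code was tested on simulated counts. Scaling, filters, naming and clustering were varied, with scaling by edgeR 4.0.16 TMM among them. Promoters are RefSeq's, and positions GENCODE's on GRCm38.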

Additional observations from a re-analysis of the deposited data

How the results depend on the processing

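No paired analysis was possible because each group is 1 library. Comparisons within single clusters and without cluster 18 were chosen after the data were seen. Of gene counts, 149 stayed within 1.5 times of the reported count and 41 did not; of values of named genes, 4726 stayed, 523 moved and 5 turned. Of list medians, 1414 stayed and 257 moved. Of class shares, 80 stayed and 16 moved. Shares of cells with a UMI, as given for eGFP, Csn3 and Cdkn1a, mostly moved, with 4 that stayed and 28 that did not. The genes that turned were Areg, an EGF receptor ligand, in epithelial-like cells (reported log2 -1.47, but 0.61 with the 2 libraries clustered alone, 0.33 in eGFP cells alone), Nkd1, a Wnt feedback gene, there (-3.32, but 1.30 in luminal-like cells alone, 0.61 without cluster 18) and Ccl9, a myeloid chemokine, in cluster 14 (-3.62, but 1.76 with cells weighted equally). Epithelial-like cells were 30.4% of Recurrent and 6.62% of Dormant cells when named by marker UMIs per cell, and 8.24% of Dormant with the 2 libraries clustered alone. Named by marker UMIs, macrophage- and T- and NK-like cells were 63.3% and 22.3% of Recurrent immune cells, plasmacytoid dendritic-like cells 5.02% and 7.18% of Recurrent and Dormant ones, and B- or plasma-like cells 10.0% of Dormant ones. With the 2 libraries clustered alone, Dormant immune shares were 10.6% macrophage-, 62.7% T- and NK-, 13.5% B- or plasma- and 6.09% plasmacytoid dendritic-like. Stricter cell filters gave 73.9% T- and NK- and 5.97% B- or plasma-like Dormant cells and 0% and 0% neutrophil-like cells. Epithelial-like counts of higher and lower genes were 160 and 349 in luminal-like cells, 212 and 570 without cluster 18 and 181 and 93 in cluster 19, against 435 and 1251. Macrophage counts were 64 and 69 in cluster 7 and 103 lower in cluster 9, against 179 and 238. T- and NK-like counts were 91 and 34 in cluster 4, 54 and 36 in cluster 11 and 23 and 34 in cluster 14, against 210 and 125. Fibroblast-like genes lower were 66 in cluster 1, against 179. A minimum of 100 UMIs left 605 epithelial-, 182 luminal- and 137 macrophage-like genes lower, 120 T- and NK-like genes higher, 62 and 109 fibroblast-like genes higher and lower, and in clusters 1, 7 and 19 counts of 40 and 39, 32 and 43, and 85 and 37; in cluster 9 45 were lower, in clusters 4 and 11 29 and 26 higher, and in cluster 14 6 and 22 higher and lower. A minimum of 5 UMIs gave 146, 93 and 51 higher in clusters 4, 11 and 14. Luminal-like genes lower were 556 without doublets and 558 at resolution 0.5, against 349. With cells weighted equally, cluster 11 had 95 and 63. TMM gave 70 lower in cluster 4; it put 50.1% of called genes higher in T- and NK-like cells, 48.9% in cluster 4 and 41.3% in cluster 11, against 62.7%, 72.8% and 60.0%. Without mitochondrial, ribosomal and haemoglobin genes, 51.0% were higher in cluster 19, against 66.1%. TMM moved the median of all genes by 0.15 in epithelial-like cells, -0.11 in T- and NK-like cells, -0.23, -0.16, -0.25 and -0.13 in clusters 4, 9, 11 and 19. The causes were not tested. Genes were not compared in dendritic-, plasmacytoid dendritic-, NK- and endothelial-like cells, of which fewer than 50 were Recurrent.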
